A study of Homo sapiens with 44 samples.

Results

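The libraries described here were taken from IMR5/75 cells 8 and 10 h after release from a thymidine block, when the cells pass through G2 and mitosis, with or without induction of a short hairpin RNA (shRNA) against MYCN. They are 8 of the 44 libraries of the study and were chosen by their labelled time and tetracycline treatment. IMR5/75 is a human neuroblastoma line with amplified MYCN, and every group carries the same tetracycline-inducible MYCN shRNA. All cells were held at the G1/S transition with thymidine for 18 h and then washed free of it. The 4 groups were Tet plus (shRNA induced) at 8 h, Tet plus at 10 h, Tet minus (shRNA not induced) at 8 h and Tet minus at 10 h, each with 2 libraries that the design text calls biological replicates. The study used 1 cell line, and the groups held no control hairpin and no tetracycline on cells lacking the shRNA, so a drug effect, an off-target effect of the hairpin and an effect of less MYCN cannot be told apart. The duration of tetracycline treatment is not given in the sources used here. Within a replicate, both arms and both times carry 1 lane number, lane 2 for replicate 1 and lane 5 for replicate 2.

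MYCN is a transcription factor of the MYC family that pairs with MAX and binds E-boxes, of which CACGTG is the best known, at genes for ribosome production, nucleotide synthesis and the cell cycle. Genes of G2 and mitosis follow another control: the DREAM complex holds them low in early G1 through the cell cycle genes homology region, commonly TTTGAA, and MYBL2, FOXM1 and the CCAAT-binding factor NF-Y raise them as cells approach division. The cyclin B and CDK1 kinase then drives entry into mitosis, the spindle checkpoint delays chromosome separation until kinetochores are attached, and the anaphase promoting complex (APC/C) ends mitosis by marking cyclin B and securin for destruction. The comparison asks which of these programmes differ between the arms around mitosis.

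The 8 libraries held 14617474 to 23611770 gene counts, and 13978 genes passed the filter on low counts. Levels are in CPM, a gene's count relative to the library's total with the total adjusted by TMM, and Tet plus was compared with Tet minus in 1 fit with time and replicate number as covariates. Adrenergic neuroblastoma markers fitted the label, with 8 of 9 at a mean of at least 1 CPM (summed level 703 to 1013 CPM in Tet minus and 943 to 1263 CPM in Tet plus libraries), whereas TH was near 0. Of the mesenchymal markers 8 of 9 also reached 1 CPM, led by VIM, with sums of 885 to 1447 and 849 to 1658 CPM and COL1A2 at 0 counts. Schwann cell markers summed to 2.46 to 3.58 CPM in Tet minus and 3.48 to 4.71 CPM in Tet plus libraries, with SOX10 at 0. None of the leukocyte, epithelial or endothelial markers reached a mean of 1 CPM. Their sums were 0.0480 to 0.482 against 0.136 to 0.443, 0.521 to 1.34 against 1.01 to 1.42 and 0.0474 to 0.287 against 0.175 to 0.975 CPM, with CD3E and PECAM1 at 0. ERCC spike-in transcripts took 1.37% to 2.82% of counts in Tet minus and 1.60% to 5.85% in Tet plus libraries, the highest being the second Tet plus library at 10 h. The share was higher in Tet plus in 3 of 4 pairs (mean log2 difference 0.28), and an exact permutation test within pairs (2-sided) gave p = 0.5, although a test over 4 pairs cannot pass the 0.05 threshold. In these bulk samples, fewer cells with a transcript and less of it per cell cannot be told apart.

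MYCN RNA itself was only slightly lower with the shRNA induced. MYCN stood at 1198 and 1156 CPM at 8 h and at 1233 and 1359.8 CPM at 10 h without tetracycline. MYCN with the shRNA induced stood at 1006, 1167, 962 and 1006 CPM in the same order, with replicate 1 given before replicate 2 here and below. The Tet plus library lay below its Tet minus partner in 3 of 4 pairs, the exception being replicate 2 at 8 h, and the arms overlapped. The difference over both times passed the test (log2 fold change -0.26, SE 0.0824, edgeR adjusted p = 0.0253), but it was lost when any of 6 libraries was left out (all but the second Tet minus and the second Tet plus library at 8 h), without the replicate term and with spike-in scaling. At 8 h alone it was -0.12 (edgeR adjusted p = 0.458) and at 10 h alone -0.40 (edgeR adjusted p = 0.0174). The counts cover transcripts only, so the MYCN protein level in these cells is not known from them. Reads of MYCN and of its antisense partner MYCNOS cannot be told apart where strand was not used in counting, and MYCNOS itself had -0.08 (edgeR adjusted p = 0.513).

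Despite that small change in MYCN RNA, the arms differed across much of the transcriptome at 8 and 10 h. At an adjusted p under 0.05 (edgeR quasi-likelihood test, Benjamini-Hochberg adjustment over all genes tested), 2280 genes (16.3%) were higher and 2088 (14.9%) lower in Tet plus cells. These 2 shares are the background for each list count over both times. Most differences were small. A rise of 2-fold or more was seen for 167 genes (1.19%) and a fall of 2-fold or more for 81 (0.579%). For 2371 genes (17%) the 4 libraries of one arm did not overlap the 4 of the other. Without the replicate term 590 genes were higher and 615 lower. With library sizes set by the ERCC transcripts, 2 were higher and 3 lower, and the median difference of all genes moved from 0.01 to -0.22, so every direction below is relative to the bulk of transcripts and not per spike-in molecule.

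**Figure D1:**
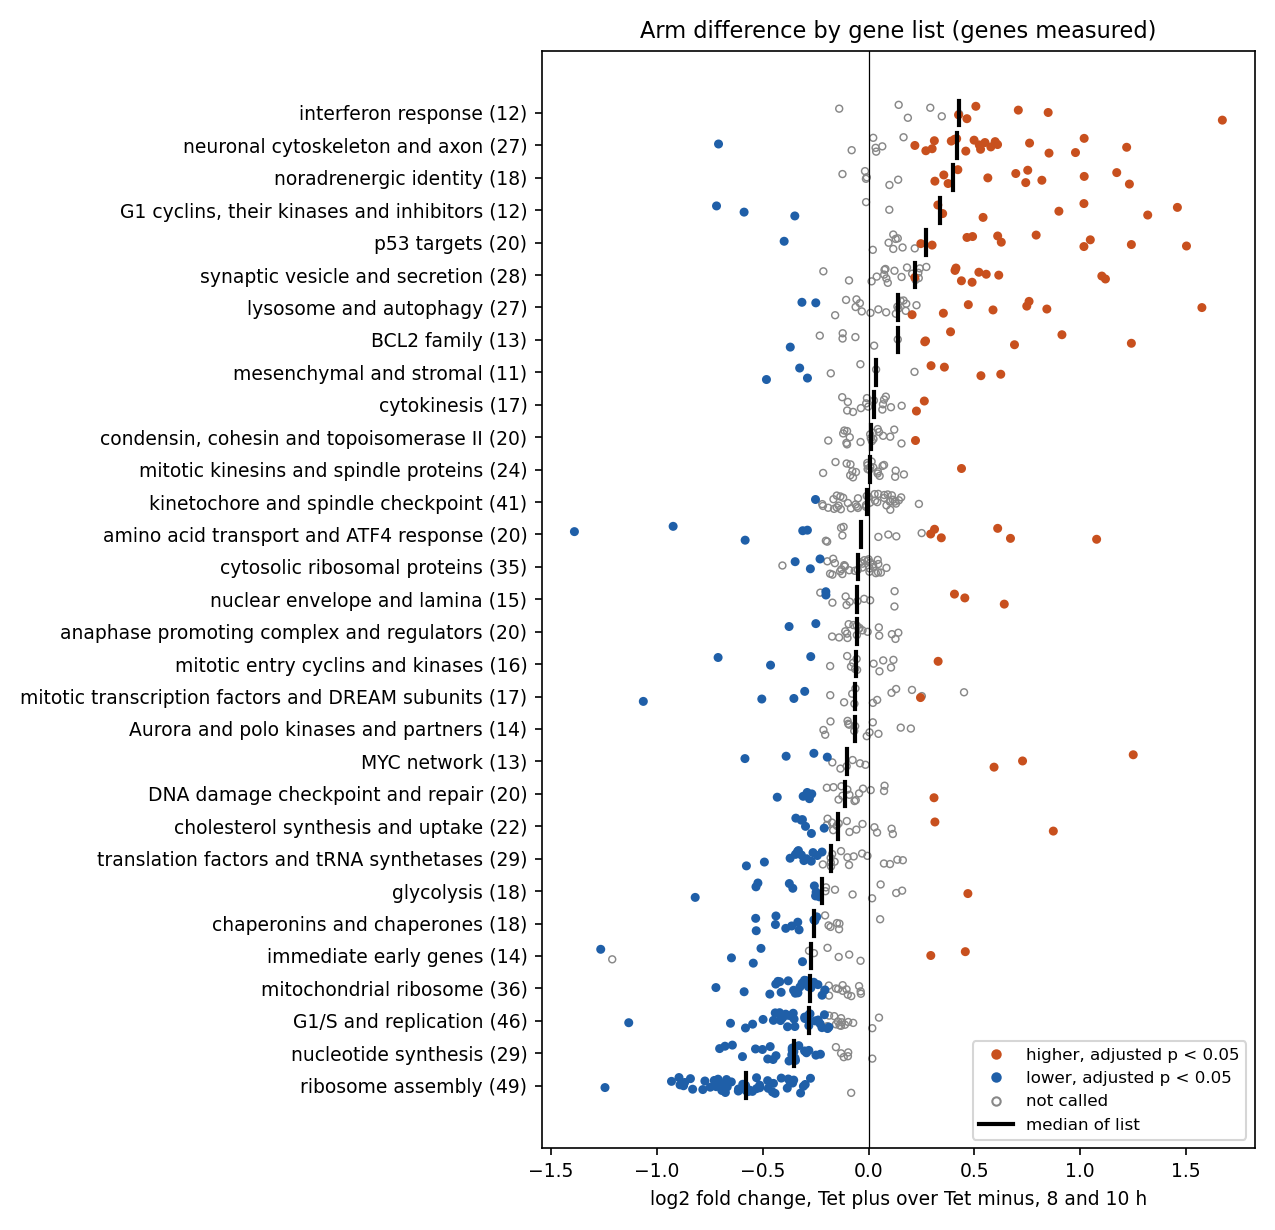
Each point is a gene, placed by its log2 fold change of Tet plus over Tet minus cells at 8 and 10 h, in gene lists of at least 10 measured genes ordered by their median (black bar); filled points passed an edgeR adjusted p of 0.05. Ribosome assembly genes lie lowest with a median of -0.58, the mitotic lists lie close to 0, and neuronal and noradrenergic lists lie above it. With spike-in scaling the medians of the synaptic, lysosome and BCL2 family lists turn negative. Those of the mitotic kinesin, condensin and cohesin, cytokinesis and mesenchymal lists do so too. The median of the mitotic lists together is then -0.24, beside -0.22 for all genes.

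Genes that carry out mitosis differed little between the arms when both times were averaged. Over 8 lists (entry kinases, Aurora and polo kinases, mitotic transcription factors, APC/C, kinetochore and checkpoint, kinesins and spindle, condensin and cohesin, cytokinesis), 6 of 169 measured genes rose and 10 fell, or 3.55% and 5.92%, below the shares of all genes given above. Their median difference was -0.01 beside 0.01 for all genes, and 91.7% lay within 0.25 of 0 against 62.7% of all genes. With spike-in scaling their median was -0.24, beside -0.22 for all genes, so the small difference held only relative to other genes. Without the replicate term 1 rose (NUMA1) and 3 fell (CDC25A, E2F5 and NFYA). Leaving out the second Tet minus or the second Tet plus library at 8 h raised the number that rose to 15 or 14, and leaving out the first Tet minus or either Tet plus library at 10 h lowered it to 2.

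Among the kinases and phosphatases of mitotic entry, 1 of 16 rose and 3 fell. CDC25A stood at 75.9 and 88.1 CPM at 8 h and at 95.2 and 90.8 CPM at 10 h without tetracycline. CDC25A with the shRNA induced stood at 47.1, 56.1, 53.9 and 56.8 CPM in the same order. This phosphatase, which frees CDK1 and CDK2 from inhibitory phosphate and is best known from G1/S, was lower in every Tet plus library than in any Tet minus library (log2 fold change -0.71, SE 0.0727, edgeR adjusted p = 3.73e-06). PKMYT1, a membrane-bound kinase that inhibits CDK1, fell by 0.46 and MASTL (Greatwall), which restrains the phosphatase opposing CDK1, fell by 0.27 on the log2 scale. CDC25C, the phosphatase that activates CDK1 at mitotic entry, stood at 49.7, 58.4, 47.1 and 46.6 CPM in Tet minus and 58.7, 54.7, 72.0 and 69.0 CPM in Tet plus cells. Its 2 highest values were the Tet plus libraries at 10 h, while at 8 h the arms overlapped, and the averaged difference passed the test (log2 fold change 0.33, SE 0.0976, edgeR adjusted p = 0.0171) but not when any of the 4 libraries at 10 h was left out. Averaged over both times, 4 other genes of the entry switch did not pass the test, although CCNB1 did at 8 h and CDK1 at 10 h (values follow with the single times): CCNB1 had log2 fold change -0.18, 95% interval -0.39 to 0.03, edgeR adjusted p = 0.177, CDK1 log2 fold change 0.02, 95% interval -0.22 to 0.27, edgeR adjusted p = 0.898, CCNA2 log2 fold change -0.10, 95% interval -0.31 to 0.10, edgeR adjusted p = 0.463 and WEE1 log2 fold change 0.05, 95% interval -0.11 to 0.21, edgeR adjusted p = 0.65.

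None of the 14 Aurora and polo kinases and their partners passed the edgeR test over both times, 1 was higher and 2 lower at an unadjusted p under 0.05, and DESeq2 called 0 higher and 1 lower. Without the second Tet minus library at 8 h 2 of them rose, without the first Tet minus or the second Tet plus library at 10 h 2 fell, and with a block per pair 1 rose and 2 fell. AURKA, the centrosome kinase, had -0.10, AURKB, the kinase of the chromosomal passenger complex, -0.07, and PLK1 -0.20, the last lower in Tet plus in 4 of 4 pairs (edgeR adjusted p = 0.0839). Of 17 mitotic transcription factors and DREAM subunits, 1 rose and 4 fell. E2F5 stood at 49.4 and 57.0 CPM at 8 h and at 47.8 and 49.4 CPM at 10 h without tetracycline. E2F5 with the shRNA induced stood at 23.4, 26.7, 22.2 and 25.2 CPM in the same order. E2F5, a repressor-type E2F of the DREAM complex, was lower in every Tet plus library than in any Tet minus library (log2 fold change -1.06, SE 0.0731, edgeR adjusted p = 1.05e-07). NFYA, the regulatory subunit of NF-Y, fell by 0.50 and E2F4, the main DREAM E2F, by 0.30, whereas RBL2, the pocket protein p130 of DREAM, rose by 0.25, a call lost without the first Tet minus or either Tet plus library at 10 h. MYBL2 fell by 0.35 (edgeR adjusted p = 0.0114), a call lost without the first Tet minus library at 8 h, the second Tet minus library at 10 h or the first Tet plus library at 10 h, and FOXM1 did not pass the test (log2 fold change -0.06, 95% interval -0.23 to 0.11, edgeR adjusted p = 0.594).

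Of the 20 APC/C subunits and regulators none rose and 2 fell. CDC23, a scaffold subunit, stood at 101, 118, 95.6 and 109 CPM in Tet minus and 76.2, 81.7, 74.6 and 94.4 CPM in Tet plus cells, with no overlap between arms (log2 fold change -0.38, SE 0.0710, edgeR adjusted p = 8.06e-04). ANAPC1, the largest subunit, fell by 0.25 (not without the first Tet plus library at 8 h), while the activator CDC20, the ubiquitin-conjugating enzyme UBE2C and securin (PTTG1) had -0.09, -0.04 and -0.06 and did not pass the test. In the kinetochore and checkpoint list 1 of 41 genes fell, MIS12 by 0.25, and that call was lost when any of 5 libraries was left out. Leaving out the second Tet minus or second Tet plus library at 8 h instead gave 5 or 4 kinetochore genes that rose and none that fell.

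Among 24 kinesins and spindle proteins 1 rose. NUMA1, which organises spindle poles, stood at 554, 512, 567 and 552 CPM in Tet minus and 745, 798, 715 and 701 CPM in Tet plus cells. All Tet plus values were above all Tet minus values, and the difference was present at 8 h (0.53) and at 10 h (0.34), with log2 fold change 0.44, SE 0.0749, edgeR adjusted p = 3.61e-04 over both. The motor KIF11 and the spindle assembly factor TPX2 had -0.00 and -0.06 and did not pass the test. TOP2B, a topoisomerase II that non-dividing cells also use, rose by 0.22 among 20 condensin, cohesin and topoisomerase genes, and TSG101 and STMN1 rose by 0.26 and 0.23 among 17 cytokinesis genes. The TOP2B and STMN1 calls were lost when single libraries were left out (6 and 5 of the 8, respectively), and with spike-in scaling their differences were -0.02 and -0.02.

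The averages over both times hid a pattern across mitotic genes: they tended to be lower in Tet plus cells at 8 h and higher at 10 h. At 8 h 24 of the 169 fell and 1 rose, 14.2% and 0.592%, where 9.39% of all genes fell and 10.5% rose, 19.9% in either direction. At 10 h 24 rose and 7 fell, 14.2% and 4.14%, where 9.41% of all genes rose and 8.91% fell, 18.3% in either direction. The median difference was -0.15 at 8 h and 0.11 at 10 h, beside 0.01 and 0.01 over all genes. Of the 169, 94 (55.6%) were lower at 8 h and higher at 10 h and 6 went the opposite way, against 1947 (13.9%) and 2050 of the 13978 genes tested. The change of the arm difference from 8 to 10 h was positive for 144 of the 169 (85.2%) and for 50.1% of all genes. It was positive with an unadjusted edgeR p under 0.05 for 68 of the 169 (40.2%), against 438 (3.13%) of all genes tested. No single gene passed the test of that change: edgeR called 0 genes (1111 at an unadjusted p under 0.05, or 7.95%), and DESeq2 called 0 (605 at an unadjusted p under 0.05). Without the first Tet minus library at 10 h edgeR called 47 genes lower, without any of the other 3 libraries at 10 h it called 1 lower, and without single libraries at 8 h it called 0.

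The size of this shift differed between replicates. Within replicate 1 the median difference of the mitotic genes was -0.04 at 8 h and 0.08 at 10 h, and 53 genes (31.4%) went from lower to higher, against 11.6% of all genes. Within replicate 2 the medians were -0.25 and 0.16, and 107 genes (63.3%) did so, against 19% of all. The number that fell at 8 h was 2 without the second Tet plus library at 8 h, 5 without the second Tet minus library at 8 h and 43 without the first Tet plus library at 8 h. The number that rose at 10 h was 1 without either Tet plus library at 10 h, and 4 or 6 without the first or second Tet minus library at 10 h. Without the replicate term no mitotic gene passed the test at either time. The median change of the arm difference stayed positive in each of these fits, between 0.16 and 0.35 with a library left out. With spike-in scaling the mitotic medians were -0.31 at 8 h and -0.19 at 10 h, where those of all genes were -0.14 and -0.29, so the higher level at 10 h then held only relative to other genes.

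AURKA was among the 6 genes with the smallest p of the change between times. AURKA stood at 288 and 365 CPM at 8 h and at 227 and 239 CPM at 10 h without tetracycline. AURKA with the shRNA induced stood at 255, 225, 264 and 286 CPM in the same order. At 8 h both Tet minus values were above both Tet plus values, and at 10 h both Tet plus values were above both Tet minus values. The difference was -0.44 at 8 h (edgeR adjusted p = 0.0119) and 0.24 at 10 h (edgeR adjusted p = 0.148), and its change was 0.68, SE 0.157, unadjusted p = 5.48e-04, edgeR adjusted p = 0.568. KIF18A, a kinesin that dampens chromosome movements at metaphase, stood at 144, 189.8, 103 and 121 CPM in Tet minus and 136, 122, 135 and 149 CPM in Tet plus cells. It fell at 8 h (-0.35, edgeR adjusted p = 0.0390) and rose at 10 h (0.35, edgeR adjusted p = 0.0462), and its change was 0.70, SE 0.160, unadjusted p = 5.30e-04, edgeR adjusted p = 0.568.

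Cyclin B1 passed the test at 8 h and not at 10 h. CCNB1 stood at 586 and 718 CPM at 8 h and at 581 and 614 CPM at 10 h without tetracycline. CCNB1 with the shRNA induced stood at 507, 461, 592 and 654 CPM in the same order. Both Tet minus libraries at 8 h were above both Tet plus libraries at 8 h, and the 10 h values of the arms interleaved, with -0.42 at 8 h (edgeR adjusted p = 0.0137) and 0.06 at 10 h (edgeR adjusted p = 0.751), and its change was 0.48, SE 0.154, unadjusted p = 0.00685, edgeR adjusted p = 0.571. CDK1 stood at 272, 352, 222 and 217 CPM in Tet minus and 268, 236, 271 and 289.6 CPM in Tet plus cells. Its Tet minus values were lower at 10 than at 8 h in both replicates, its Tet plus values were higher in both, and the difference was -0.30 at 8 h (edgeR adjusted p = 0.0746) and 0.35 at 10 h (edgeR adjusted p = 0.0446). TOP2A, which untangles sister chromatids, rose at 10 h (0.39, edgeR adjusted p = 0.0329) with -0.15 at 8 h. CKAP2L, a spindle-associated protein outside the lists, had the smallest p of the change between times: 0.72, SE 0.147, unadjusted p = 1.72e-04, edgeR adjusted p = 0.568. It stood at 62.0, 61.8, 40.1 and 37.0 CPM in Tet minus and 62.5, 49.1, 58.1 and 56.0 CPM in Tet plus cells, so the Tet minus level was lower at 10 than at 8 h in both replicates.

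Some other mitotic genes called at a single time took the same course, and those named here were picked for that after their values were seen. At 8 h the kinetochore motor CENPE had -0.44 and the cohesin protector SGOL2 -0.45, where at 10 h they had 0.20 and 0.35. At 10 h the centromere loading factor HJURP had 0.39, the checkpoint kinase TTK 0.46 and the spindle protein ASPM 0.48, where at 8 h they had -0.18, -0.23 and -0.15. E2F5, CDC25A, NFYA and CDC23 did not follow it and were lower at both times. Among others that did not, MYBL2, PKMYT1 and E2F4 had lower mean levels in Tet plus cells at both times, and NUMA1 was higher at both. The 7 mitotic genes that fell at 10 h were 2 of the entry list, 4 of the transcription factor and DREAM list and 1 of the APC/C list.

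**Figure D2:**
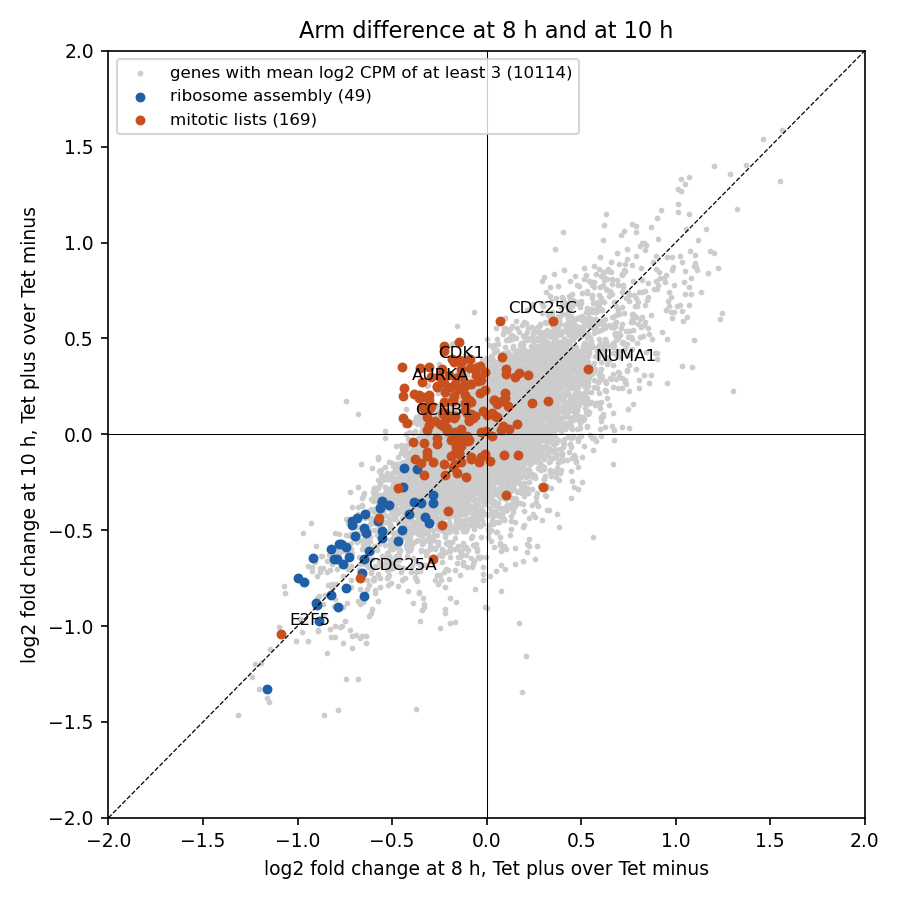
Log2 fold change of Tet plus over Tet minus cells at 8 h (horizontal axis) against that at 10 h (vertical axis), with the 10114 genes of mean log2 CPM of at least 3 in grey, ribosome assembly genes in blue and the 169 mitotic genes in orange; the dashed line marks equal differences. Ribosome assembly genes follow the line below 0, while 94 of the 169 mitotic genes sit in the upper left part, lower at 8 h and higher at 10 h.

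The time courses of the list levels place this shift along the cycle. The mean log2 level of the 169 genes, centred per gene over 0 to 14 h, climbed in Tet minus cells from -0.24 at 3 h to 0.19 at 6 h and 0.36 at 8 h, and was 0.20 at 10 h and 0.01 at 12 h. In Tet plus cells it was -0.23 at 3 h, 0.03 at 6 h, 0.21 at 8 h, 0.28 at 10 h and 0.11 at 12 h. By library at 8 h it was 0.33 and 0.39 in Tet minus and 0.28 and 0.13 in Tet plus cells, and at 10 h 0.19 and 0.22 against 0.25 and 0.32, so the arms did not overlap at either time. Among the 7 times, 88 of the 169 genes had their highest mean level at 8 h and 14 at 10 h in Tet minus cells, whereas in Tet plus cells 19 did at 8 h and 81 at 10 h. These are peaks of means over 2 replicates. In Tet plus replicate 1 alone the set was no higher at 10 h (0.25) than at 8 h (0.28). Peak times were not counted over all genes.

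Because 8 and 10 h libraries of a replicate share a lane, the change from 8 to 10 h was also read within replicates. In Tet minus cells 121 and 135 of the 169 genes were lower at 10 than at 8 h in replicates 1 and 2. In Tet plus cells 80 and 36 were lower and 89 and 133 higher. Of the 13978 genes tested, 7030 and 7250 were lower in Tet minus and 7223 and 6708 higher in Tet plus cells. In Tet plus replicate 1 the median change was 0.006 for the mitotic and 0.009 for all genes. In Tet plus replicate 2 it was 0.17 and -0.01, so as a set the mitotic genes gained over the background only there. A drop in both Tet minus replicates with a gain in both Tet plus replicates was seen for 46 genes (27.2%), against 6.20% of all genes tested, and the opposite for 2. Of the spindle and kinesin genes, 21 and 21 of 24 were lower at 10 h in the Tet minus replicates and 16 and 22 of 24 higher in the Tet plus replicates. The lists were not uniform in Tet plus replicate 1. There 6 of 20 condensin and cohesin, 19 of 41 kinetochore and 7 of 17 transcription factor genes were higher at 10 h. The entry kinase, Aurora and polo, APC/C and cytokinesis lists had 11 of 16, 8 of 14, 12 of 20 and 10 of 17 higher.

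**Figure D3:**
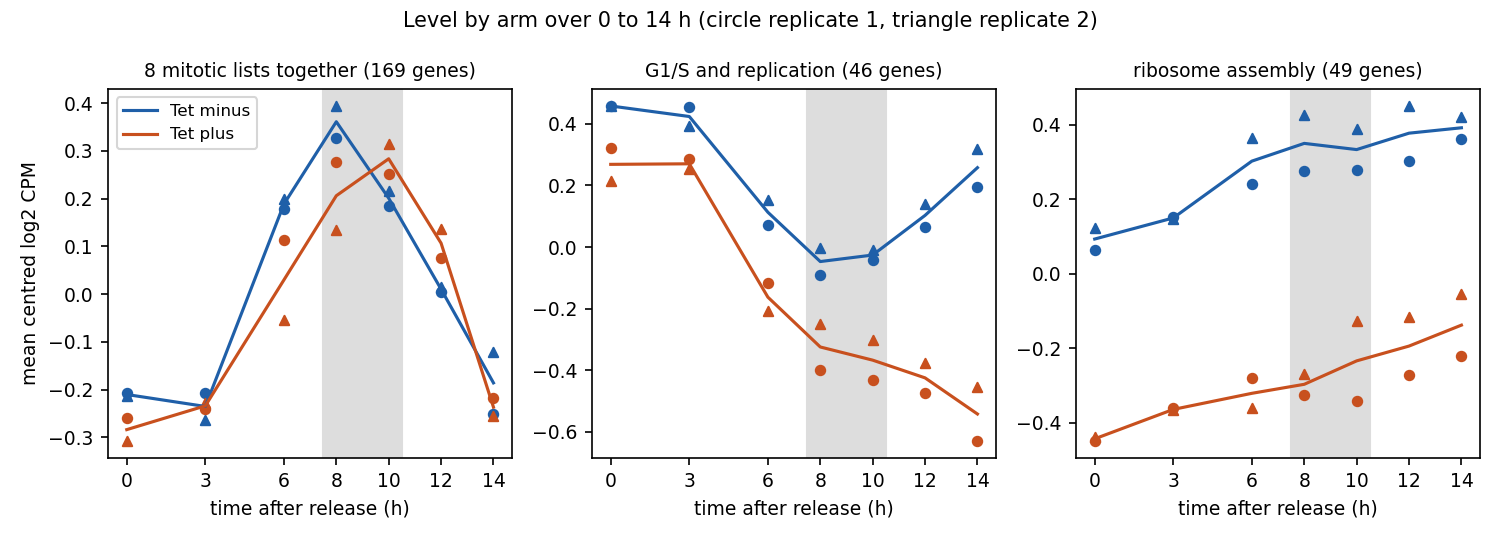
Mean centred log2 CPM of 3 gene lists against time after release, with Tet minus in blue and Tet plus in orange, circles for replicate 1, triangles for replicate 2, lines through the means and the 8 and 10 h libraries shaded. By the means, the mitotic genes are highest at 8 h in Tet minus (0.36) and at 10 h in Tet plus cells (0.28). Tet plus replicate 1 alone is 0.28 at 8 h and 0.25 at 10 h. The replication and ribosome assembly genes are lower in Tet plus cells at 8 and 10 h.

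The promoters of these genes differ in the letters the background names. RefSeq windows of 300 bases (250 before to 50 after the start, GRCh38.p14, while the counts were made on hg19) matched 147 of the 169 mitotic genes by symbol, and each window was searched on both strands for CACGTG, for TTTGAA and for CCAAT. The last and the one before it can overlap at their end letters. TTTGAA was present in 42.9% of the mitotic windows and CCAAT in 59.9%, against 15.4% and 35.7% of the 27305 promoters in the table. The 40 matched windows of the G1/S and replication list held TTTGAA in 2.5% and CCAAT in 55%. A high share of CCAAT was therefore not particular to the mitotic genes. In the 81 matched genes lower at 8 h and higher at 10 h the shares were 56.8% and 69.1%, and in the 66 other mitotic genes 25.8% and 48.5%. CACGTG was present in 10.2% of the mitotic windows, in 29.2% of 24 matched nucleotide synthesis windows and in 7.43% of all. In the G1/S and replication list, whose genes also tended to be lower in Tet plus cells, it was present in 10% of windows. Among the 10762 tested genes with a window (77% of those tested), the shares were 9.57% for TTTGAA, 36.6% for CCAAT and 10.3% for CACGTG. The mitotic and the G1/S shares of CACGTG were thus close to that of the tested genes. These are matches of letters and not measured sites. The ribosome assembly list (79.6% with a window) and the called genes as a whole are left out of this count, since fewer than 80% of their members had a window. The tested genes, at 77%, are under that limit as well and are given only as a background. The windows of 4 genes are shown 5′ to 3′ on the gene's strand, with the searched letters in capitals. Each was picked for holding the letters, so their presence in these windows is no result. MTHFD1L and PPAT had the smallest p over both times among nucleotide synthesis genes with CACGTG, which 7 of 24 windows held. They were lower at both times, with CACGTG at -154 and -182 from the start and CCAAT at -193 in MTHFD1L. CDK1 and KIF11 had the smallest p of the change between times among a fixed set of mitotic genes with TTTGAA and CCAAT. They were lower at 8 h and higher at 10 h. TTTGAA lies at -161 in CDK1 and, read as TTCAAA, at -28 in KIF11. CCAAT lies at -150 in CDK1 and, read as ATTGG, at -53 in KIF11.
MTHFD1L (chr6:150866236-150866535, + strand): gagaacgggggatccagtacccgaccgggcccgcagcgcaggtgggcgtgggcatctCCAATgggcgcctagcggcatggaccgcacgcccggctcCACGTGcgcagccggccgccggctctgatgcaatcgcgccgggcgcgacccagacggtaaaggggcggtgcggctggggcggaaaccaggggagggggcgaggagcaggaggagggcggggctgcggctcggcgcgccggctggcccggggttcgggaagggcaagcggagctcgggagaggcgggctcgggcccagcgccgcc
PPAT (chr4:56435566-56435865, - strand): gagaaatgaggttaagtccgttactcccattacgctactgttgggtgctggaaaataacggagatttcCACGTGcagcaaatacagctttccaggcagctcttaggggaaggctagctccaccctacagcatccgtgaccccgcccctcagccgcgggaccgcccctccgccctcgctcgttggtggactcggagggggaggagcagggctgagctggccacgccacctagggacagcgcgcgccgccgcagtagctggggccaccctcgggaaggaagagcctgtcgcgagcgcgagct
CDK1 (chr10:60778081-60778380, + strand): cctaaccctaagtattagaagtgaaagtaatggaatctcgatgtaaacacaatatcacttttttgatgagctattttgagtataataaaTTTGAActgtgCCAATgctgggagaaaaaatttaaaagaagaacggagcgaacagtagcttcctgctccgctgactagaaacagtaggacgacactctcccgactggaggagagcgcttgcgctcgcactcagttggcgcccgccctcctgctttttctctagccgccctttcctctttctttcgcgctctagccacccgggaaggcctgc
KIF11 (chr10:92592880-92593179, + strand): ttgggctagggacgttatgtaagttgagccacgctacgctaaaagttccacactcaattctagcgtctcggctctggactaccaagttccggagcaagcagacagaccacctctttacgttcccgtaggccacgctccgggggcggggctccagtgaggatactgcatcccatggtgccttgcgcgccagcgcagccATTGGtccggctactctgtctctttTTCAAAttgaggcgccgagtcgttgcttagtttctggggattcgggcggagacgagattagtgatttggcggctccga

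Genes of growth were lower in Tet plus cells at both times. Of 49 ribosome assembly genes 48 fell and none rose (median -0.58), and 47 fell at 8 h alone and 45 at 10 h alone. RRS1, a factor of the large subunit, stood at 37.9, 30.7, 39.5 and 37.5 CPM in Tet minus and 16.6, 14.0, 15.04 and 15.6 CPM in Tet plus cells, with a clear gap between the arms (log2 fold change -1.24, SE 0.0874, edgeR adjusted p = 1.14e-07). MYBBP1A, RRP12 and DDX21, which act in rRNA transcription and processing, fell by 0.93, 0.89 and 0.87. The cytosolic ribosomal proteins themselves changed much less: 3 of 35 fell (RPS12, RPLP2 and RPS2) and none rose, with a median of -0.05, and 9 fell without the second Tet minus library at 10 h, 5 without the second Tet minus library at 8 h and 1 without the first library of Tet minus at 8 h, Tet plus at 8 h or Tet plus at 10 h. In the mitochondrial ribosome 23 of 36 genes fell (6 without the replicate term), with a median of -0.28, led by MRPS12 at -0.72.

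Of 29 nucleotide synthesis genes 23 fell and none rose (median -0.35), or 9 without the replicate term. MTHFD1L, a mitochondrial folate enzyme, stood at 89.8, 106, 85.0 and 115 CPM in Tet minus and 53.1, 66.4, 51.2 and 73.5 CPM in Tet plus cells (log2 fold change -0.70, SE 0.0698, edgeR adjusted p = 3.03e-06). PPAT, which takes the committed step of purine synthesis, stood at 167, 234, 181 and 211 CPM in Tet minus and 110.2, 132, 114 and 151 CPM in Tet plus cells (log2 fold change -0.64, SE 0.0718, edgeR adjusted p = 7.75e-06). For both genes every Tet plus value was below every Tet minus value, and replicate 2 was higher than replicate 1 in each group. PFAS and CAD, for purines and pyrimidines, fell by 0.53 and 0.36.

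Translation factors and tRNA synthetases fell in 13 of 29 cases (median -0.18; 3 without the replicate term), among them EIF5A at -0.49, and chaperones in 11 of 18 (median -0.26; 3 without it), among them the mitochondrial HSPD1 and TRAP1 at -0.53 and -0.53. Without the first Tet minus library at 8 h 6 chaperones fell, and without the first Tet plus library at 10 h 7 did. Of 18 glycolysis genes 9 fell (median -0.22; 3 without the replicate term, 5 without the first Tet plus library at 8 h or at 10 h), led by LDHA at -0.82 and HK2 at -0.53, while the neuronal enolase ENO2 rose by 0.47. Cholesterol genes fell in 6 of 22 cases and rose in 2, beside 14.9% and 16.3% of all genes (median -0.15; 2 and 1 without the replicate term, 3 fell without the first Tet plus library at 8 h and 1 rose when any of 4 libraries was left out), with HMGCS1 at -0.34 and TM7SF2 at 0.87.

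In the amino acid transport and ATF4 response list 6 of 20 genes rose and 5 fell (median -0.04; 2 rose without the replicate term). SLC38A5 stood at 76.6 and 75.8 CPM at 8 h and at 105 and 77.3 CPM at 10 h without tetracycline. SLC38A5 with the shRNA induced stood at 30.3, 30.9, 35.2 and 30.6 CPM in the same order. SLC38A5, a glutamine and glycine carrier, had the lowest difference of the named genes (log2 fold change -1.39, SE 0.0842, edgeR adjusted p = 5.07e-08) and kept its call in every alternative run. SLC7A5, SLC1A5 and SLC3A2, which carry leucine and glutamine, fell by 0.92, 0.58 and 0.29, whereas DDIT4 and SESN2, inhibitors of mTORC1, rose by 1.08 and 0.61.

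Genes of DNA replication were lower at both times. Of 46 G1/S and replication genes 32 fell and none rose (median -0.28), with 14 falling at 8 h alone and 21 at 10 h alone. The count was 10 without the replicate term, 21 without the first Tet plus library at 8 h and 20 without the first Tet minus library at 10 h. MCM3 stood at 332 and 392 CPM at 8 h and at 368 and 376 CPM at 10 h without tetracycline. MCM3 with the shRNA induced stood at 144, 184, 155 and 189.8 CPM in the same order. MCM3, a subunit of the replicative helicase, was lower in every Tet plus library by a wide margin (log2 fold change -1.13, SE 0.0727, edgeR adjusted p = 7.44e-08), and its paralogues MCM6, MCM7 and MCM2 fell by 0.45, 0.39 and 0.42. ORC1, CDC6 and CDT1, which load that helicase, fell by 0.65, 0.41 and 0.58. In the DNA damage and repair list 5 of 20 genes fell, among them EXO1 and FANCG at -0.31 and -0.28, and TP53BP1 rose by 0.31, and without the replicate term none of the 20 fell.

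In the list of G1 cyclins, their kinases and inhibitors 7 of 12 rose and 3 fell (median 0.34). CDKN1A stood at 123 and 121 CPM at 8 h and at 129.7 and 117 CPM at 10 h without tetracycline. CDKN1A with the shRNA induced stood at 215, 307, 251 and 219.9 CPM in the same order. CDKN1A (p21), which inhibits cyclin-dependent kinases, was higher in every Tet plus library than in any Tet minus library (log2 fold change 1.02, SE 0.0979, edgeR adjusted p = 2.24e-06). CCNG2, a cyclin of resting cells, stood at 17.3, 13.3, 11.8 and 9.17 CPM in Tet minus and 41.4, 33.1, 28.9 and 24.6 CPM in Tet plus cells. It was higher in Tet plus in 4 of 4 pairs (log2 fold change 1.32, SE 0.0836, edgeR adjusted p = 7.44e-08), and its level was lower at 10 than at 8 h in both arms. CDKN1C, CDKN2D and CDKN2C rose by 1.46, 0.90 and 0.54, while CDK4, CCND3 and CDK6 fell by 0.72, 0.59 and 0.35.

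Of 20 p53 target genes 11 rose and 1 fell (median 0.27; 5 and 0 without the replicate term). TP53INP1, a regulator of autophagy and cell death, stood at 27.4, 31.2, 25.8 and 29.3 CPM in Tet minus and 72.1, 90.2, 72.4 and 88.1 CPM in Tet plus cells, with the arms far apart (log2 fold change 1.50, SE 0.0706, edgeR adjusted p = 2.77e-09). BTG2, SESN1 and BBC3 rose by 0.79, 0.63 and 1.24, and the nuclease AEN fell by 0.40. Of 13 BCL2 family genes 6 rose and 1 fell (median 0.14, and -0.07 with spike-in scaling; 2 rose without the replicate term), with the death-promoting BMF and BBC3 at 0.91 and 1.24, the survival genes BCL2 and BCL2L1 at 0.39 and 0.27, and BID at -0.37.

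**Figure D4:**
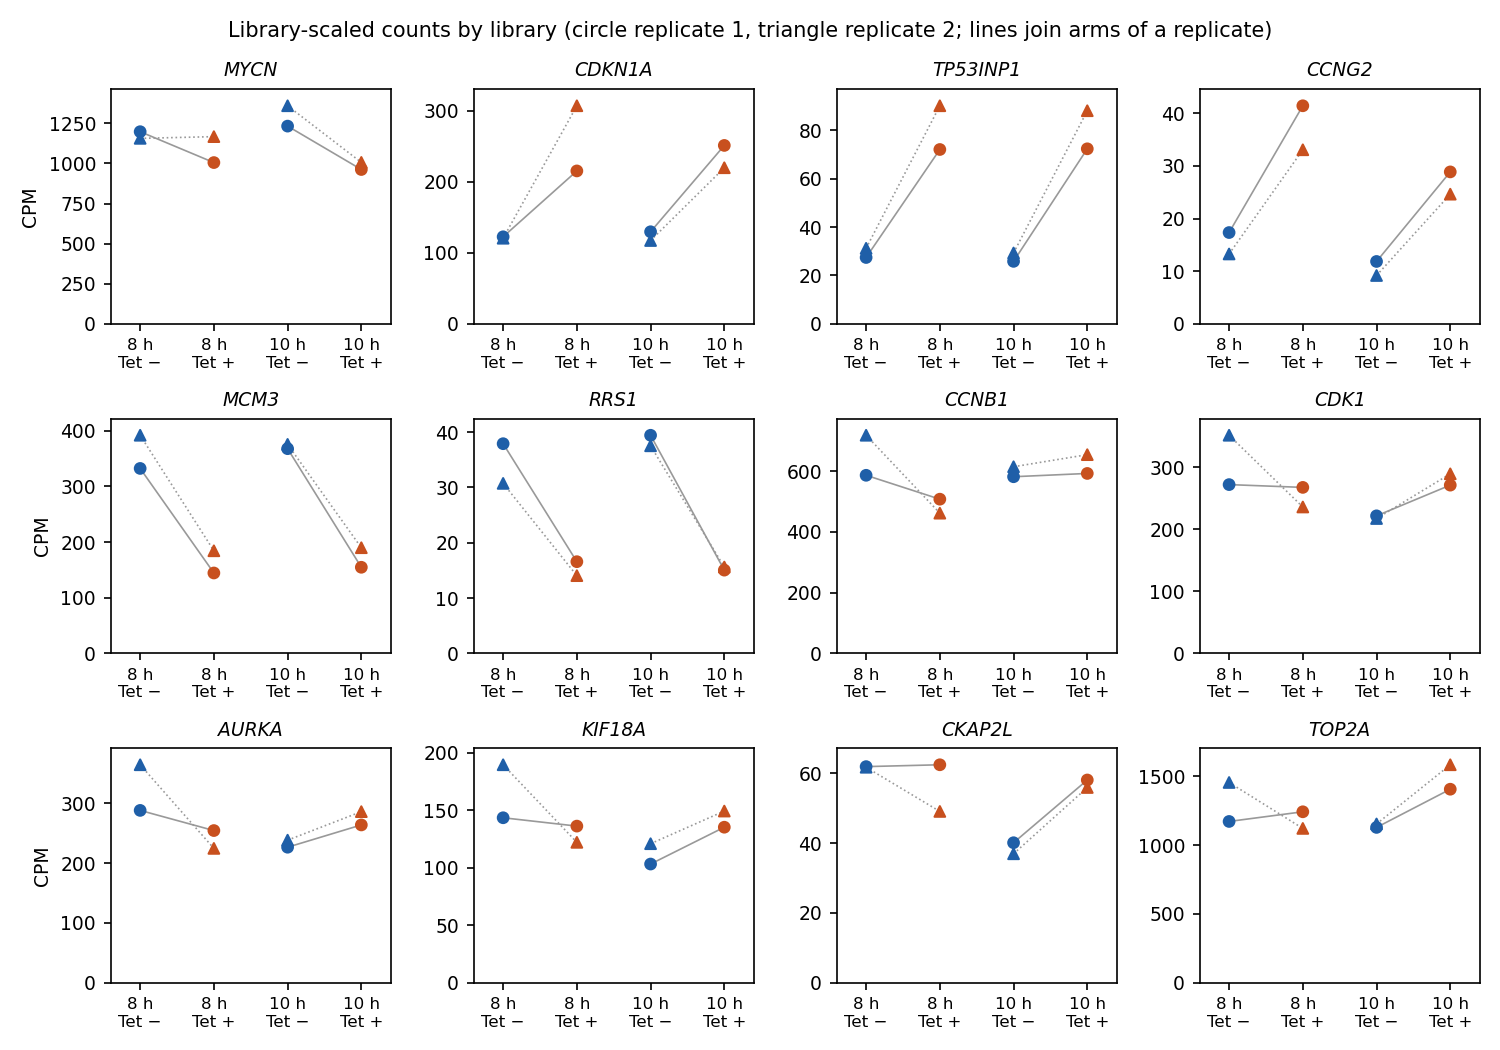
Library-scaled counts (CPM, axes from 0) of 12 genes in the 8 libraries, with Tet minus in blue, Tet plus in orange, circles for replicate 1, triangles for replicate 2 and grey lines joining the arms of a replicate at each time. CDKN1A, TP53INP1 and CCNG2 are higher and MCM3 and RRS1 lower in Tet plus cells at both times, whereas for CDK1, AURKA and KIF18A the lines slope down at 8 h and up at 10 h.

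Genes of the sympathetic neuron were higher. Of 18 noradrenergic identity genes 12 rose and none fell (median 0.40; 5 without the replicate term). DDC stood at 12.9 and 16.8 CPM at 8 h and at 12.5 and 13.7 CPM at 10 h without tetracycline. DDC with the shRNA induced stood at 27.7, 33.7, 32.8 and 31.6 CPM in the same order. DDC, the enzyme that makes dopamine, had no overlap between the arms (log2 fold change 1.17, SE 0.0962, edgeR adjusted p = 5.26e-07). The noradrenaline transporter SLC6A2 rose by 1.02, the granule proteins CHGA and CHGB by 0.75 and 0.82, and the receptors RET and ALK by 1.23 and 0.56. Of 27 neuronal cytoskeleton and axon genes 20 rose and 1 fell (median 0.42; 3 and 0 without the replicate term). STMN4, DCX and L1CAM rose by 1.22, 0.98 and 0.85, and the neurofilament NEFM fell by 0.71. Synaptic vesicle genes rose in 10 of 28 cases and none fell (median 0.22, and -0.01 with spike-in scaling; 5 without the replicate term), led by CADPS at 1.12 and SNAP91 at 1.10.

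Lysosome and autophagy genes rose in 8 of 27 cases and fell in 2 (median 0.14, and -0.07 with spike-in scaling; 5 and 0 without the replicate term, and 1 fell when any of 6 libraries was left out). OPTN stood at 12.6 and 12.2 CPM at 8 h and at 14.0 and 9.94 CPM at 10 h without tetracycline. OPTN with the shRNA induced stood at 37.5, 35.7, 38.9 and 32.4 CPM in the same order. OPTN, an autophagy receptor, had the highest difference among the genes named by rank (log2 fold change 1.57, SE 0.0912, edgeR adjusted p = 3.78e-08). Interferon response genes rose in 6 of 12 cases and none fell (median 0.43; 2 without the replicate term), with IFI35 and IFIT1 at 0.71 and 0.85. Nuclear envelope genes rose in 3 of 15 cases and fell in 2, shares near the 16.3% and 14.9% of all genes, with the linker proteins SYNE1, SYNE2 and SUN2 at 0.64, 0.45 and 0.41 and LMNB2 at -0.20, and the LMNB2 call was lost when any of 5 libraries was left out. Mesenchymal genes rose in 4 of 11 cases and fell in 3 (median 0.04), none of them without the replicate term, and 1 fell without the first Tet minus library at 8 h.

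The MYC network, the partners and antagonists of MYCN, was mixed: 3 of 13 rose and 4 fell (median -0.10). Of the genes of MAX partners that oppose MYC proteins, MXD4, MXD3 and MXD1 rose by 1.25, 0.73 and 0.59. These calls held in every alternative except spike-in scaling. MNT, another such partner, went the other way. MLXIP, MNT, MYCN and MAX fell by 0.39, 0.58, 0.26 and 0.19, and none fell without the second Tet minus library at 10 h or without the replicate term, 1 without either Tet plus library at 10 h and 2 without the first Tet minus library at 8 or 10 h or the first Tet plus library at 8 h. In the immediate early list 5 of 14 fell and 2 rose (median -0.27), while 3 fell without the first Tet minus library at 10 h, 2 without the first Tet plus library at 10 h and none without the replicate term. EGR1, a growth factor responsive gene, stood at 8.02, 0.947, 23.8 and 1.92 CPM in Tet minus and 5.63, 1.86, 2.25 and 1.10 CPM in Tet plus cells, so the first Tet minus library at 10 h was far above the rest, and its change between 8 and 10 h (-2.51, SE 0.573, unadjusted p = 4.94e-04, edgeR adjusted p = 0.568) rests on values that differ widely between replicates.

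Of 3253 genes called with the same sign in 4 of 4 pairs and a mean log2 CPM of at least 3, 1549 were higher and 1704 lower. The 12 highest were OPTN, TP53INP1, WFIKKN2, GCHFR, CCNG2, C1orf187, MXD4, METTL7A, MAMDC2, DDC, ARHGAP36 and PLEKHA6, from 1.57 to 1.14. WFIKKN2, a secreted protease inhibitor, stood at 48.1, 16.6, 51.4 and 13.6 CPM in Tet minus and 116, 58.7, 124 and 35.9 CPM in Tet plus cells, so the replicates differed widely while each pair went up. The 12 lowest were SLC38A5, SLCO4A1, SNORA61, SNHG4, DDN, RRS1, CCDC86, DCLK3, NAGPA, MCM3, SLC29A2 and E2F5, from -1.39 to -1.06. Small nucleolar RNAs lie in introns of host genes. SNORA61 can therefore share reads with its host gene, and SNHG4, a host gene, with the small nucleolar RNA it carries. Their single values (-1.27 and -1.27) are uncertain to that extent. SLCO4A1, an organic anion carrier, stood at 45.5, 37.8, 50.8 and 41.3 CPM in Tet minus and 18.3, 19.0, 18.7 and 16.2 CPM in Tet plus cells (log2 fold change -1.27, SE 0.0873, edgeR adjusted p = 1.05e-07).

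The arm differences at 8 h and at 10 h were also counted apart. At 8 h 1472 genes were higher and 1312 lower, and at 10 h 1315 and 1246. Of these, 1450 genes were called at both times, 52.1% of the 8 h list and 56.6% of the 10 h list, and 1449 had the same direction. Without the replicate term no gene passed at 8 h and 3 higher and 12 lower genes passed at 10 h. Without the second Tet plus library at 8 h the counts at 8 h were 321 and 336, and without the first Tet plus library at 10 h those at 10 h were 432 and 437.

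Against neighbouring phases, fitted over the 28 libraries of 0 to 14 h, few genes passed the test of a different arm difference at 8 and 10 h. Compared with 3 and 6 h (S phase), 2 of 14331 genes (0.014%) passed, both histone genes and both higher, while 1610 (11.2%) had an unadjusted p under 0.05. H2AFX, the histone variant phosphorylated at DNA breaks, stood at 121, 90.4, 86.1 and 68.4 CPM in Tet minus and 129.7, 124, 89.2 and 75.7 CPM in Tet plus cells. It was higher in Tet plus in 4 of 4 pairs at 8 and 10 h with overlapping arms, whereas at 3 and 6 h its difference was -0.51 and -0.63, and the change was 0.75, SE 0.104, edgeR adjusted p = 0.00928. HIST2H2AB changed by 0.80, SE 0.121, edgeR adjusted p = 0.0174. Lane numbers differ between these phases (8 and 4 at 3 and 6 h, 2 and 5 at 8 to 12 h, 3 and 6 at 14 h), which the fit takes out within each replicate set but cannot separate from time. Without the replicate term no gene passed, and without single libraries 0 to 18 passed as higher.

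Compared with 12 and 14 h, the next G1, 49 genes (0.342%) had a higher and 5 (0.0349%) a lower difference at 8 and 10 h. Of these 54 genes (0.377%) 35 were histone genes, 6 were G1/S genes and 1 was mitotic (UBE2C). Against 12 h alone, which shares its lanes with 8 and 10 h, 27 were higher and 1 lower, all 28 among the 54, and without the replicate term 8 and 0 passed. DTL, an adaptor of the ubiquitin ligase that destroys replication proteins, changed by 0.87, SE 0.0938, edgeR adjusted p = 6.35e-05, with differences of -0.32 and -0.45 at 8 and 10 h and -1.05 and -1.45 at 12 and 14 h.

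Histone genes were therefore described as a set, chosen after these values were seen and by the start of their names (HIST, H2AF, H3F or H1F). Replication-dependent histone RNAs lack a poly(A) tail and are made in S phase, and libraries depleted of ribosomal RNA can hold them. Of 54 measured, 38 rose and none fell at 8 and 10 h, with a median of 0.40 (14 rose without the replicate term). HIST1H4B stood at 61.4, 74.4, 58.0 and 59.6 CPM in Tet minus and 98.3, 129, 65.7 and 75.4 CPM in Tet plus cells. Its Tet plus values at 8 h were the 2 highest of the 8, and the arms were closer at 10 h (log2 fold change 0.51, SE 0.0933, edgeR adjusted p = 6.68e-04 over both). HIST2H2AB stood at 199, 204, 150.4 and 163 CPM in Tet minus and 272, 354, 203 and 223 CPM in Tet plus cells, with each Tet plus value above its partner (log2 fold change 0.53, SE 0.0760, edgeR adjusted p = 7.17e-05). The reads of histone genes can be shared between near-identical copies, so single members are uncertain.

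Summed over all histone genes, histone counts made up 1.24% and 1.12% of gene counts in Tet minus and 1.62% and 1.69% in Tet plus cells at 8 h, and 1.09% and 1.01% against 1.29% and 1.23% at 10 h. At 3 h the order was the other way, with 4.04% and 2.63% in Tet minus and 3.33% and 2.27% in Tet plus cells, and at 6 h the replicates disagreed (2.29% and 1.96% against 2.95% and 1.70%). At 12 h the shares were 1.32% and 1.19% in Tet minus and 1.13% and 1.00% in Tet plus cells, and at 14 h 1.56% and 1.38% against 1.14% and 1.10%. The median arm difference of the set was -0.06, -0.33, -0.07, 0.46, 0.25, -0.47 and -0.67 at 0, 3, 6, 8, 10, 12 and 14 h.

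**Figure D5:**
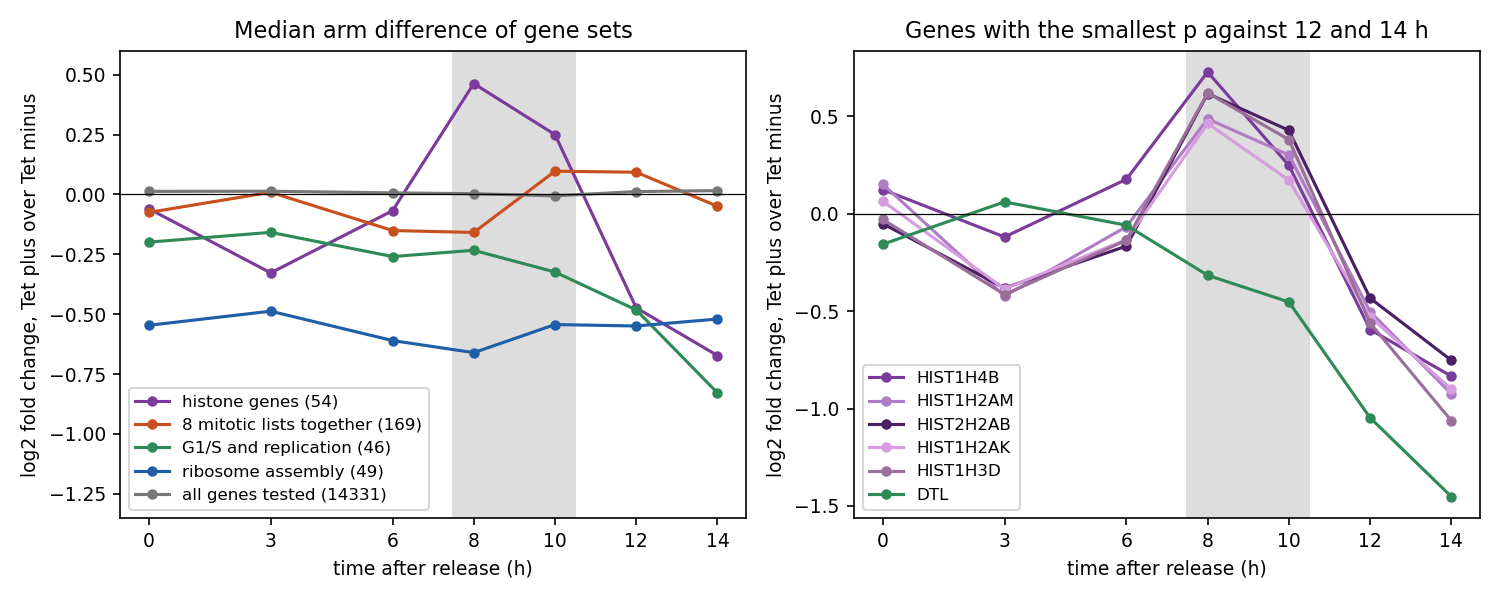
Arm difference (log2 fold change of Tet plus over Tet minus) against time after release, as medians of gene sets on the left and for single genes on the right, with 8 and 10 h shaded. The histone set is above 0 at 8 and 10 h (0.46 and 0.25) and below 0 at 3, 12 and 14 h, the mitotic lists pass from -0.16 at 8 h to 0.10 at 10 h, and ribosome assembly genes stay between -0.66 and -0.49 at all 7 times.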

How the data were processed

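RNA was measured by sequencing in 44 libraries, of which the 8 at 8 and 10 h were compared and the 28 at 0 to 14 h served for differences from other times. ERCC spike-in transcripts were added to total RNA, ribosomal RNA was removed and strand-specific libraries were built, per the labels' protocols. The deposited table holds raw read counts per gene, which the authors made with TopHat2 2.0.5 and HTSeq on hg19, per the submitters' processing notes. Neither the annotation nor the strand setting is given in the sources used here. Overlapping, antisense and near-identical genes may therefore share counts. The 92 ERCC rows were kept out of library sizes and tests.

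The test was edgeR 4.0.16 under R 4.3.3 (TMM, filterByExpr by group, glmQLFit and glmQLFTest), with time and replicate number as covariates for the arm difference and with group means and replicate number for 8 h, 10 h and their change. Adjustment followed Benjamini and Hochberg over all genes tested, with a threshold of 0.05. SE was taken as the size of the log2 fold change over the root of its F statistic. Residual degrees of freedom were 4, 3 and 11 in the fits of arm, groups and 28 libraries. The p-values measure the spread between these libraries. The functions were tested on simulated counts. Same-numbered libraries of the arms share a lane number and deviated together (r = 0.805 at 8 h and 0.834 at 10 h over 10114 genes), so the numbers were taken to pair the arms. Same-numbered libraries of different times also deviated together (r = 0.616 to 0.780). The 4 pairs are therefore 2 numbered replicates at 2 times and were not shown to be independent of each other. No pair of replicates agreed within sampling noise, so none was counted as a duplicate.

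Named genes were MYCN, the 12 highest and 12 lowest differences among genes called with 1 sign in 4 of 4 pairs and a mean log2 CPM of at least 3, at most 4 members a list, taken by adjusted p, a fixed set of mitotic genes with CDKN1A, and the 6 smallest p-values of each difference between times. Further list members are named beside their list's count. The members and lists were chosen with earlier results of these data known. Alternatives were no replicate term, RLE size factors, ERCC scaling, other filters, each library left out, a block per pair, a spread from 28 libraries and DESeq2 1.42.0. DESeq2 for the change from 8 to 10 h and 12 h alone as the later time were chosen after seeing the data.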

Additional observations from a re-analysis of the deposited data

Results flagged for a closer look

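For 8 results on 7 genes the arm difference at 8 and 10 h was unlike that at another phase by a test of the difference itself (edgeR quasi-likelihood test over 28 libraries, adjusted over all genes). Against 3 and 6 h, H2AFX differed by 0.75 and HIST2H2AB by 0.80 on the log2 scale. Against 12 and 14 h, HIST1H4B differed by 1.20, HIST1H2AM by 1.11, HIST2H2AB by 1.12, HIST1H2AK by 1.03, HIST1H3D by 1.31 and DTL by 0.87. Apart from DTL these are histone genes, whose copies can share reads. The phases carry different lane numbers, whose part in these differences was not tested, except that 12 h shares its lanes with 8 and 10 h: against 12 h alone HIST1H4B differed by 1.08, HIST1H2AM by 0.90, HIST2H2AB by 0.96, HIST1H2AK by 0.85, HIST1H3D by 1.06 and DTL by 0.66.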

How the results depend on the processing

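The count of genes depended most on the replicate block and on spike-in scaling. Without the replicate block, the arm difference at 8 and 10 h had 590 genes higher and 615 lower, that at 8 h 0 and 0, and that at 10 h 3 and 12. The difference from 3 and 6 h then had 0 genes higher, and that from 12 and 14 h 8 higher and 0 lower. With ERCC scaling 2 genes were higher and 3 lower, and TOP2B (-0.023) and STMN1 (-0.016) changed sign. So did the medians of the synaptic (-0.0079), lysosome (-0.069) and BCL2 family (-0.068) lists. The medians of the mitotic kinesin (-0.22), condensin and cohesin (-0.23), cytokinesis (-0.21) and mesenchymal (-0.20) lists changed sign too. The cause was not tested. Without a filter on low counts the change from 8 to 10 h had 5 genes higher and 6 lower and the difference from 3 and 6 h 19 and 1, and with the stricter filter the latter had 4 and 1. Against 12 h alone, 27 genes were higher and 1 lower, with fewer libraries in the contrast.

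With 1 library left out, the arm difference at 8 and 10 h had 1584 to 2133 genes higher and 1419 to 2170 lower, that at 8 h 321 to 1628 and 336 to 1434, and that at 10 h 432 to 1299 and 437 to 1353. The change from 8 to 10 h had 0 higher and 0 to 47 lower, the difference from 3 and 6 h 0 to 18 and 0 to 1, and that from 12 and 14 h 43 to 51 and 4 to 7. Where an arm then had 1 library at a time, it was assumed to vary like the others. Of 2780 values of the named genes under alternatives, 2504 kept direction and side of the threshold, 239 lost the call, 35 gained it and 2 reversed. With 2 libraries a group, small changes between 8 and 10 h in single genes may have been missed at this number of libraries.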
